A study of Mus musculus with 18 samples.

Results

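The comparison of estradiol with oil in KIKO mice rests on 6 of the 18 arcuate libraries, 3 labelled KIKO E2 and 3 labelled KIKO oil, chosen by their labels. KIKO E2 animals were injected with estradiol benzoate after ovariectomy, first with 250 ng (day 5) and then with 1500 ng (day 6). KIKO oil animals received oil. The WT E2, WT oil, ERKO E2 and ERKO oil groups, of 3 libraries each, were handled alike and serve only to set the KIKO values beside those of an intact and a missing receptor. All animals were ovariectomized females listed under the strain C57/BL, and the arcuate nucleus was taken 24 h after the last dose, once food had been withheld for 1 h. The name KIKO commonly stands for mice that carry over a null Esr1 allele a knocked-in estrogen receptor α (ERα) that cannot bind estrogen response elements. ERKO mice lack ERα. The labels state neither how the alleles were built nor whether a library came from 1 animal. The p values therefore measure the spread between libraries, pooled over all 6 groups, and that spread may be technical.

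Estradiol-bound ERα acts on genes in several ways: it binds estrogen response elements directly, it is tethered to DNA through other factors such as AP-1 and Sp1, and it signals from the membrane through kinases. In the arcuate nucleus, ERα is abundant in KNDy neurons, which release kisspeptin, neurokinin B and dynorphin and pace the secretion of gonadotropin-releasing hormone. Estradiol lowers kisspeptin in these neurons as part of negative feedback. The same nucleus holds neurons for feeding (Agrp, Npy, Pomc) and for growth hormone and prolactin control (Ghrh, Sst, Th). The KIKO comparison addresses which responses remain in mice whose ERα lacks direct binding to the elements. By the common meaning of the name, these mice also carry a null Esr1 allele. Against WT, loss of binding and a lower receptor dose therefore cannot be told apart.

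Expression was measured by RNA sequencing in FPKM, the fragments of a gene per kilobase and per total of its library. Relative depth in KIKO libraries, inferred from the deposited confidence bounds, ran from 0.937 to 1.41 under E2 and from 0.851 to 1.57 under oil, within the range of 0.759 to 1.57 over all 18 libraries. Of 23235 gene symbols, 14774 were tested, those with a mean of at least 0.5 FPKM over the 18 libraries. Esr1 itself had 3.05, 3.89 and 2.85 FPKM in KIKO E2 libraries and 2.91, 4.08 and 3.94 FPKM in KIKO oil libraries. Its change, −0.12 ± 0.32, was smaller than its error. Under oil it averaged 3.65 ± 0.637 FPKM in KIKO, 2.09 ± 0.417 FPKM in ERKO and 8.05 ± 3.39 FPKM in WT libraries (SD, n = 3 each), and FPKM cannot tell an altered transcript from an intact one. The library ERKO E2 3 stood apart, with correlations of 0.919 to 0.954 with the others. ERKO values named below include it unless stated, and several changes are also given without it. Changes are differences of log2(FPKM + 1) ± SE of the limma fit, which understate the change of genes with low FPKM, and p values are two-sided from the same fit.

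The 250 bases before the start of 5 genes are shown because the KIKO receptor is defined by the DNA it cannot bind. Gldn was the gene that passed the threshold in KIKO, Kiss1 and Tacr3 are KNDy genes that fell in WT, and Greb1 and Pgr are textbook estrogen targets that rose in WT. Sequences are from RefSeq, build GRCm38.p6, with matched motifs in capitals. The motifs searched on both strands were the estrogen response element GGTCANNNTGACC, the AP-1 site TGANTCA, the cyclic AMP response element TGACGTCA and the Sp1 box GGGCGG.
Gldn, chr9:54286236-54286485, plus strand: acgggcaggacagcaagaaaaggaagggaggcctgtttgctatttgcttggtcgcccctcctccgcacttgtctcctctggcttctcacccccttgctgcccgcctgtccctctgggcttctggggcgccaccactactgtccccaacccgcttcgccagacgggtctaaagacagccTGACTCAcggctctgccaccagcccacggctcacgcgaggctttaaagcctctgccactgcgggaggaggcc
Kiss1, chr1:133326962-133327211, plus strand: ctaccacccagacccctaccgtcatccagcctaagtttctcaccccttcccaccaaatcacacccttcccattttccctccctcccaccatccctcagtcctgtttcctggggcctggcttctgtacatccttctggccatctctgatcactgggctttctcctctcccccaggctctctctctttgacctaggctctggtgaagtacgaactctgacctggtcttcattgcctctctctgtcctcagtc
Tacr3, chr3:134828757-134829006, plus strand: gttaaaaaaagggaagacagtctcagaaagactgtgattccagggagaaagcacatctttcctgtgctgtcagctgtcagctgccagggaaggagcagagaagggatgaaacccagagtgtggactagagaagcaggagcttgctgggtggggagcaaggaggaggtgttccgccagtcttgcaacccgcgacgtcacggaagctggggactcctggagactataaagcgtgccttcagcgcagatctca
Greb1, chr12:16800887-16801136, minus strand, the outermost of 2 listed starts: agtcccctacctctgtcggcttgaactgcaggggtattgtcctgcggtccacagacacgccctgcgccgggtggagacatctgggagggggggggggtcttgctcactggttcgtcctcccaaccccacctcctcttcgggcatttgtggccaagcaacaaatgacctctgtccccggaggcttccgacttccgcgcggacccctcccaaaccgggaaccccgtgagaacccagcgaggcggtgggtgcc
Pgr, chr9:8899583-8899832, plus strand: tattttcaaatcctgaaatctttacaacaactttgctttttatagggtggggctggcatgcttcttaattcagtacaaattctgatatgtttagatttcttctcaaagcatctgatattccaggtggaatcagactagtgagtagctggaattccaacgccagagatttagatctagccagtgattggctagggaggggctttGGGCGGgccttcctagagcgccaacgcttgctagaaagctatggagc

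The Gldn window held 1 AP-1 site, beginning 72 bases before the start, and the Pgr window 1 Sp1 box, beginning 47 bases before it. The Kiss1, Tacr3 and Greb1 windows held none of the 4 motifs. Over all 32851 promoter windows of that length in the table, 0.0639% held the full estrogen response element, 6.75% the AP-1 site, 1.55% the cyclic AMP response element and 32.7% the Sp1 box. A match describes letters, not binding, and elements farther from the start were not searched.

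After estradiol, 1 of 14774 genes passed the threshold in KIKO arcuate, 0.00677% of those tested. This was Gldn on chromosome 9, which encodes gliomedin, a secreted and membrane protein with collagen and olfactomedin parts that clusters sodium channels at nodes of Ranvier in peripheral nerve. It had 5.51, 8.46 and 11.1 FPKM in KIKO E2 libraries, against 1.56, 2.12 and 2.70 FPKM in KIKO oil libraries. Every KIKO E2 library lay above every KIKO oil library, on implied fragment numbers of 382 to 882 under E2 and 98 to 246 under oil. The change was 1.55 with a 95% interval from 1.09 to 2.01 (limma adjusted p = 0.0441). In WT, Gldn averaged 0.711 ± 0.0571 FPKM under E2 and 1.29 ± 0.492 FPKM under oil, and in ERKO 1.16 ± 0.408 and 1.66 ± 0.104 FPKM (SD, n = 3 each). Thus the 12 other libraries all lay under the KIKO E2 values, between 0.646 and 1.78 FPKM. Its response in KIKO was larger than in WT by 1.95 ± 0.31 (limma adjusted p = 0.0146). That call was lost with a pseudocount of 0.1 (limma adjusted p = 0.0519) and without WT E2 1 (0.0523), KIKO oil 1 (0.0588) or KIKO oil 2 (0.0576). The difference from ERKO, 1.87 ± 0.31, did not pass (limma adjusted p = 0.286, and 1.71 with 0.555 without ERKO E2 3). Gldn is on the list of ventromedial nucleus markers, a neighbouring region. The summed FPKM of those 10 markers was 59.3, 114 and 74.1 in KIKO E2 libraries and 81.0, 87.9 and 55.3 in KIKO oil libraries, with overlap, and the part of dissection in the Gldn change was not tested. The call was lost, with adjusted p of 0.0816 upwards, without any 1 of the 5 KIKO libraries other than KIKO E2 1. It was also lost with a pseudocount of 0.1 (0.349) or 0.5 (0.108), with the KIKO groups alone in the fit (0.557) and with a replicate block (0.0865).

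No other gene passed in KIKO, and an unadjusted p under 0.05 was reached by 140 genes (0.948%), 81 (0.548%) higher and 59 (0.399%) lower. That share is below 0.05, and the spread used is pooled over all 6 groups, ERKO E2 3 included, rather than taken from the KIKO libraries. A change of at least 2-fold on the log2(FPKM + 1) scale was seen for 19 genes (0.129%). The middle 90% of KIKO changes lay between −0.18 and 0.23, with an SD over genes of 0.1455, against 0.2689 in WT and 0.2875 in ERKO. With 3 libraries a group, the median 95% interval reached 0.3458 to either side of a KIKO change, and it differed from gene to gene. The genes named next were taken by the size of their p among those whose 3 E2 and 3 oil libraries did not overlap, which held for 1095 genes (7.41%), 672 (4.55%) in the higher and 423 (2.86%) in the lower direction. They are descriptions of levels, since none passed (limma adjusted p of 0.257 to 1.0).

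On the higher side, 6330403A02Rik on chromosome 1 had 8.87, 9.94 and 13.5 FPKM in KIKO E2 libraries, against 5.46, 4.90 and 5.50 FPKM in KIKO oil libraries (0.88 ± 0.15, unadjusted p = 3.48e-05). It was 1 of the genes that rose in WT, where the change was 1.74, and it stood at −0.13 in ERKO (−0.07 without ERKO E2 3). Col5a1, a fibrillar collagen, had 2.27, 2.85 and 2.67 FPKM in KIKO E2 libraries, against 1.38, 1.28 and 1.26 FPKM in KIKO oil libraries (0.64 ± 0.16). Its WT and ERKO changes were −0.11 and −0.08, and the ERKO change was 0.11 without ERKO E2 3. Camk2n1, an inhibitor of the calcium/calmodulin kinase CaMKII, had 81.1, 101 and 94.9 FPKM in KIKO E2 libraries and 76.2, 69.8 and 67.2 FPKM in KIKO oil libraries (0.37 ± 0.10). C1ql1, a secreted C1q-like synapse protein, averaged 9.10 ± 0.513 FPKM in KIKO E2 and 6.39 ± 0.230 FPKM in KIKO oil libraries (SD, n = 3 each). Its change was also positive in ERKO (0.42, and 0.23 without ERKO E2 3). Car3, a carbonic anhydrase, averaged 2.56 ± 0.489 and 0.974 ± 0.352 FPKM under E2 and oil in KIKO. The remaining higher genes were 6330527O06Rik (0.99 ± 0.27), Glb1l2 (0.51 ± 0.14), Ostf1 (0.53 ± 0.16) and Syt12, a synaptotagmin (0.36 ± 0.11).

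On the lower side, Tmem35, which encodes a chaperone of nicotinic receptors, had 64.7, 79.5 and 66.8 FPKM in KIKO E2 libraries, against 102, 108 and 111 FPKM in KIKO oil libraries (−0.60 ± 0.11, unadjusted p = 7.38e-05). Its changes were −0.03 in WT and −0.10 in ERKO, with or without ERKO E2 3. The difference between KIKO and WT, −0.57, did not pass (limma adjusted p = 0.404). Sox3, a transcription factor of neural progenitors and the hypothalamus, had 17.8, 18.1 and 13.98 FPKM in KIKO E2 libraries, against 24.7, 27.3 and 33.9 FPKM in KIKO oil libraries (−0.75 ± 0.15). In contrast to Tmem35, it also fell in WT, by 1.38 on the log2 scale. Rgs4, a brake on G protein signalling, had 47.4, 49.7 and 58.0 FPKM in KIKO E2 libraries, against 65.1, 65.0 and 77.0 FPKM in KIKO oil libraries. Cthrc1, a secreted collagen triple helix protein, averaged 17.1 ± 1.25 FPKM in KIKO E2 and 24.8 ± 2.85 FPKM in KIKO oil libraries (SD, n = 3 each), with a WT change of −0.45. Npas4, an activity-dependent transcription factor, averaged 5.28 ± 0.672 and 7.36 ± 0.675 FPKM under E2 and oil in KIKO. Tsx (−0.77 ± 0.22) and Gm18756 (−0.48 ± 0.15) lay near 1 FPKM under oil and below it under E2.

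**Figure D1:**
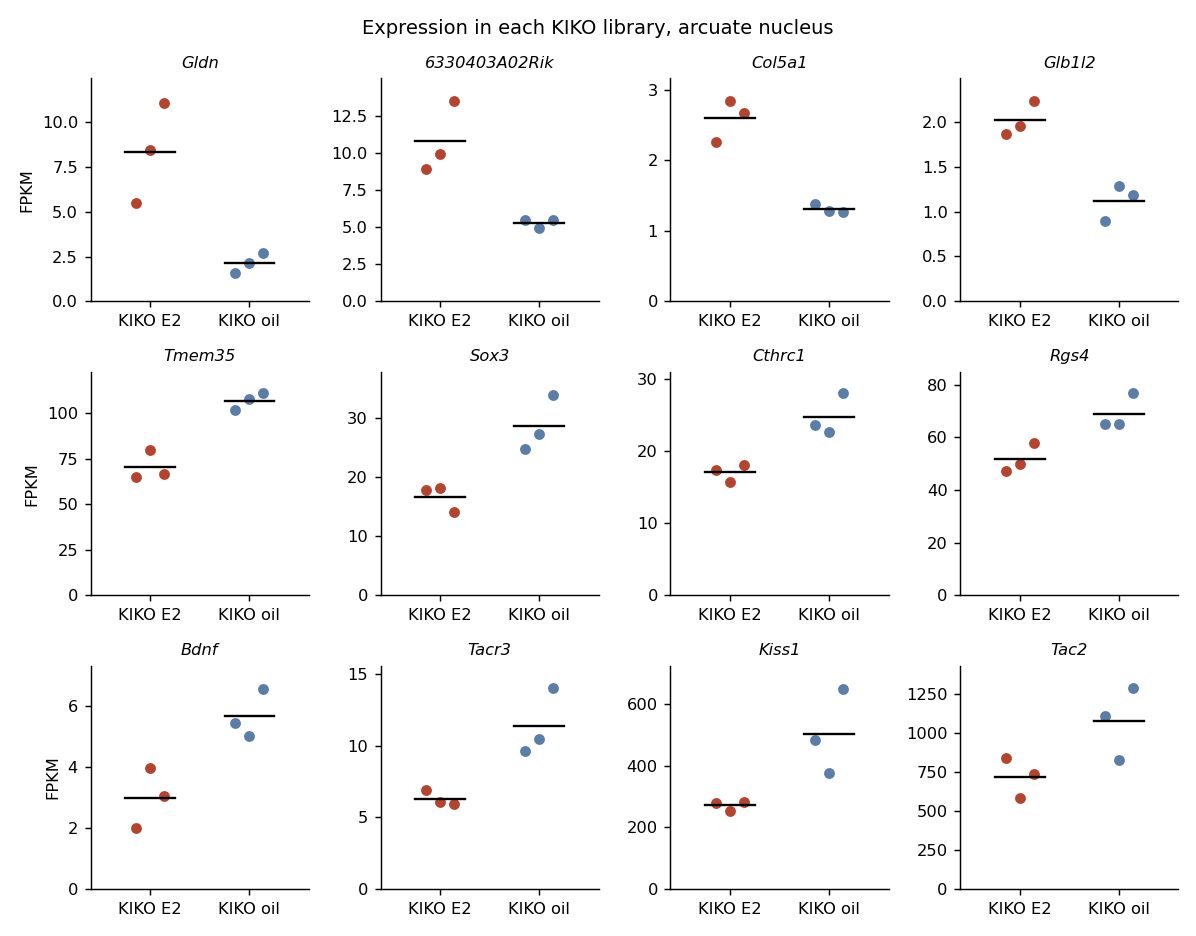
FPKM of 12 genes in each KIKO library (points) with the group mean (bar), KIKO E2 left and KIKO oil right, each axis starting at 0. The E2 and oil points do not overlap for any gene shown but Tac2, and Gldn, the gene past the threshold, has E2 values of 5.51 to 11.1 FPKM.

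KNDy and reproductive peptide genes lay mostly below 0 in KIKO without passing the threshold. Of 21 members tested, 17 had a negative and 4 a positive change, against 45.9% negative over all genes, and the median was −0.17, against 0.01 over all genes. None was called, and 4 had an unadjusted p under 0.05, all lower: Tacr3, Pcsk1, Kiss1 and Tac2. Kiss1, which encodes kisspeptin, had 280, 253 and 282 FPKM in KIKO E2 libraries, against 483, 378 and 651 FPKM in KIKO oil libraries. The groups did not overlap, and the 95% interval of the change, −1.53 to −0.18, left out 0 (unadjusted p = 0.0159, limma adjusted p = 1.0). Tacr3, the receptor for neurokinin B, had 6.92, 6.09 and 5.94 FPKM in KIKO E2 libraries, against 9.67, 10.5 and 14.03 FPKM in KIKO oil libraries, again without overlap (−0.75 ± 0.21). Pcsk1, a convertase that cuts prohormones, had 29.6, 29.4 and 21.6 FPKM in KIKO E2 libraries, against 37.7, 42.8 and 46.7 FPKM in KIKO oil libraries (−0.65 ± 0.23). Tac2, which encodes neurokinin B, averaged 720 ± 129 FPKM in KIKO E2 and 1074 ± 234 FPKM in KIKO oil libraries (SD, n = 3 each) with overlap. Pdyn, the dynorphin precursor, was at 116 FPKM in each KIKO E2 library and at 128, 121 and 165 FPKM in KIKO oil libraries (−0.23 ± 0.24). The receptors Kiss1r (−0.17) and Oprk1 (−0.01) and the hormone gene Gnrh1 (−0.34) had unadjusted p of 0.293 to 0.941. The summed FPKM of 9 neuron markers was also apart, at 1761 to 1899 in KIKO E2 and 1953 to 1990 in KIKO oil libraries. That of 14 arcuate neuron markers overlapped, at 2358 to 3547 in KIKO E2 and 3032 to 3815 in KIKO oil libraries, and their part in the KNDy values was not tested. In bulk tissue, fewer cells of a type and less RNA per cell cannot be told apart.

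The WT response gave a set of genes for the KIKO libraries to be read against, since the WT and KIKO means share no library. The WT calls did use a spread pooled over all 6 groups, KIKO included. Shares over all genes, given beside this set, were not matched for that spread. In WT, 116 genes (0.785%) passed, 27 (0.183%) that fell and 89 (0.602%) that rose. Of the 27 that fell in WT, 24 had a negative KIKO change, and in 11 (40.7%) the KIKO E2 libraries all lay below the KIKO oil libraries, as 2.86% of all genes did. These 11 were Kiss1, Tacr3, Pcsk1, Pdyn, Sox3, Bdnf, Vgf, Nefm, Nxph3, Lhfpl1 and Tnfrsf11b, of which Tnfrsf11b was named after its values were seen. The median KIKO change of the 27 was −0.23, against −1.14 in WT and 0.15 in ERKO. In ERKO, 8 of the 27 had a negative change and 1 was apart in the lower direction, as were 6.92% of all genes there, and without ERKO E2 3 the numbers were 9 negative and a median of 0.14. Without the 5 genes shared with the KNDy list, 19 of 22 were negative in KIKO and 7 (31.8%) apart. When ERKO E2 3, a library that correlated less with the others, was left out of the fit, 113 genes fell in WT. Of these, 71 were negative and 21 (18.6%) apart in the lower direction in KIKO, with a median of −0.04.

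Among the genes that fell in WT, Bdnf, a neurotrophin that restrains feeding, had 2.00, 3.97 and 3.04 FPKM in KIKO E2 libraries, against 5.47, 5.02 and 6.56 FPKM in KIKO oil libraries (−0.76 ± 0.19, and −1.27 in WT). Vgf, a precursor of secreted peptides, had 374, 349 and 297 FPKM in KIKO E2 libraries, against 403, 431 and 517 FPKM in KIKO oil libraries (−0.40 ± 0.17, and −1.46 in WT). The groups were apart for both genes, and the KIKO changes were smaller in size than the WT ones. Nxph3, a ligand of neurexins, averaged 3.34 ± 0.293 and 5.41 ± 1.61 FPKM under E2 and oil in KIKO, and the neurofilament gene Nefm 16.1 ± 1.52 and 22.4 ± 4.50 FPKM (SD, n = 3 each). Lhfpl1 was low, at 0.147 to 0.272 FPKM in KIKO E2 and 0.490 to 0.946 FPKM in KIKO oil libraries. The strong WT falls of Igfbp2, which binds insulin-like growth factors (−2.41), and Timp1, an inhibitor of metalloproteinases (−2.12), had KIKO values of −0.32 ± 0.28 and −0.46 ± 0.27 with overlapping groups. Their levels under oil were already low in KIKO. Igfbp2 averaged 9.11 FPKM in KIKO oil, 30.5 FPKM in WT oil and 5.19 FPKM in WT E2. Timp1 averaged 2.74, 13.1 and 2.23 FPKM in the same groups. The part of these levels in the small KIKO changes was not tested. A pair of genes that fell in WT lay apart and higher in KIKO, as did 4.55% of all genes. Syt12 had 6.59, 6.38 and 7.77 FPKM in KIKO E2 libraries, against 5.16, 5.07 and 5.25 FPKM in KIKO oil libraries, and Ephb3, an ephrin receptor, 2.88, 2.75 and 3.30 FPKM against 2.31, 2.29 and 2.30 FPKM.

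**Figure D2:**
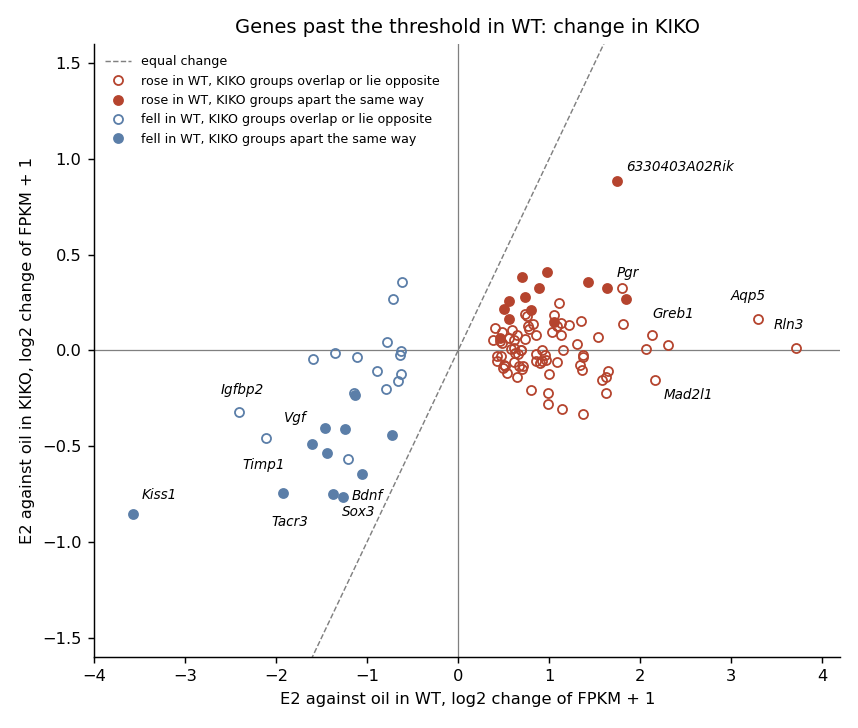
KIKO change (vertical axis) against WT change (horizontal axis), both E2 against oil as log2 change of FPKM + 1, for the 116 genes past the threshold in WT. Filled points mark genes whose KIKO groups lie apart in the WT direction, 11 of 27 that fell and 14 of 89 that rose. Most points lie closer to 0 in KIKO than the dashed line of equal change.

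Of the 89 genes that rose in WT, 53 had a positive KIKO change, against 54.1% of all genes, and in 14 (15.7%) the KIKO E2 libraries all lay above the KIKO oil libraries, against 4.55% of all genes. Their median change was 0.03 in KIKO, 0.88 in WT and −0.02 in ERKO (−0.0066 without ERKO E2 3). Of the 89, 9 averaged under 0.5 FPKM outside WT E2 and so were tested only because they were high there, Greb1, Rln3, Aqp5, Col24a1 and Fam151a among them. Without these 9, 45 of 80 were positive in KIKO and 14 apart in the higher direction, with a median of 0.0088. Besides 6330403A02Rik, Ezr, Ecel1, Pou3f1 and Ypel1 had an unadjusted p under 0.05 in KIKO, and they are named here after their values were seen. Ezr, which encodes ezrin, a linker of membrane and actin, had 31.2, 28.2 and 30.2 FPKM in KIKO E2 libraries and 25.5, 21.4 and 21.3 FPKM in KIKO oil libraries (0.38, and 0.70 in WT). Ecel1, an endopeptidase of neurons, had 133, 129 and 149 FPKM in KIKO E2 libraries and 112 FPKM in each KIKO oil library (0.28, and 0.73 in WT). In the other direction, 3 of the 89 lay apart and lower in KIKO (Col2a1, Grik1 and Sox11), as did 2.86% of all genes. Grik1 (−0.21) and Sox11 (−0.12) had unadjusted limma p of 0.162 and 0.312. With the WT set taken without ERKO E2 3, 177 of 284 genes that rose were positive and 37 (13.0%) apart in the higher direction in KIKO. The 95% KIKO interval lay wholly below 0.5 times the WT change in size for 61 of the 89 genes that rose in WT. It did so for 12 of the 27 that fell. The 89 include the 9 genes tested only through WT E2, and the count was not repeated without them. All WT changes used here had passed in WT, which favours large sizes, so a smaller KIKO change is no independent result.

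Textbook estrogen targets that rose in WT had small or undetectable changes in KIKO. Greb1, an ERα cofactor, had 0.369, 0.373 and 0.406 FPKM in KIKO E2 libraries and 0.396, 0.245 and 0.288 FPKM in KIKO oil libraries. The groups overlapped, and the interval of −0.20 to 0.36 lay far from the WT change of 2.13, on 38 to 64 implied fragments a library. Outside WT E2 Greb1 averaged 0.331 FPKM, and 5.44 FPKM in WT E2, so it passed the filter through WT E2 alone and its WT rise was built in by that filter. Pgr, the progesterone receptor, had 5.12, 5.47 and 4.76 FPKM in KIKO E2 libraries and 3.62, 4.23 and 3.81 FPKM in KIKO oil libraries. Its groups did not overlap, yet the change of 0.32 had an interval from −0.07 to 0.72 (limma adjusted p = 1.0), below the WT change of 1.64. Rln3, the neuropeptide relaxin-3, and Aqp5, a water channel, stayed under 1 FPKM in all 6 KIKO libraries, against WT E2 means of 12.4 ± 3.59 and 9.58 ± 4.56 FPKM (SD, n = 3 each), through which they too passed the filter. Over the 19 tested members of the classical target list, 12 were positive and 7 negative with a median of 0.08, and 0 were called. At an unadjusted p under 0.05 stood Ccnd1, a cyclin, at 15.05 ± 2.12 FPKM in KIKO E2 and 11.6 ± 1.16 FPKM in KIKO oil libraries. Cited2, a transcriptional coregulator, was at 28.3 ± 0.353 and 37.9 ± 0.455 FPKM in the same groups (SD, n = 3 each). Both were apart.

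**Figure D3:**
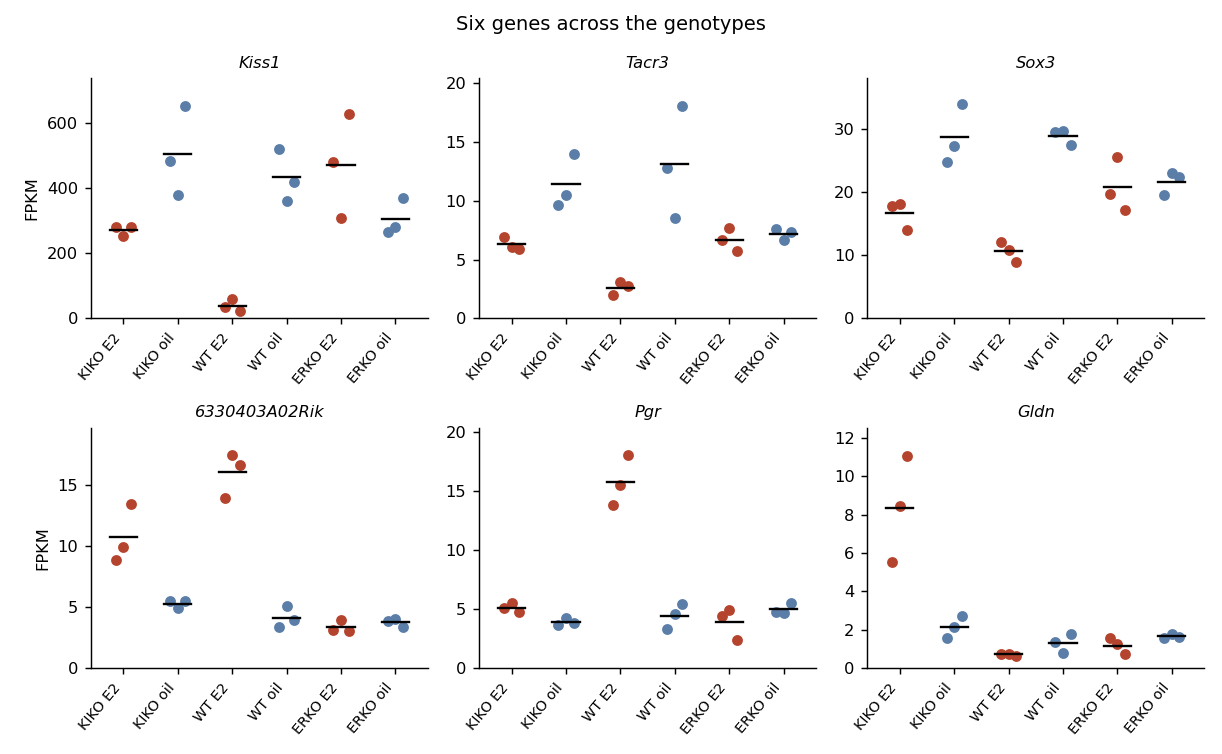
FPKM of Kiss1, Tacr3, Sox3, 6330403A02Rik, Pgr and Gldn in the libraries of all 6 groups (points, E2 red and oil blue) with the group mean (bar), each axis starting at 0. For Kiss1, Tacr3 and Sox3 the KIKO E2 mean lies below the KIKO oil mean and above the WT E2 mean, and Gldn is high in KIKO E2 libraries alone.

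Tests of the response differences set the KIKO change against the others gene by gene. For KIKO minus WT, the threshold was passed by 20 genes (0.135%), of which 4 (0.0271%) had a positive and 16 (0.108%) a negative difference. An unadjusted p under 0.05 was reached by 725 (4.91%). The 16 negative ones were all among the genes that rose in WT, and 3 of the 4 positive ones, Kiss1, Ephb3 and Syt12, among those that fell there. For Kiss1 the difference was 2.72 ± 0.45 (limma adjusted p = 0.0190), with KIKO at −0.85 and WT at −3.58. Greb1 differed by −2.05 ± 0.19 (limma adjusted p = 8.71e-05), and as 1 of 6 among the 16 negative ones it was tested only through WT E2, so that the sign of its difference is no independent result. For Sox3 (0.63), Bdnf (0.50), Pcsk1 (0.41) and Tac2 (0.64) the difference did not pass, with limma adjusted p of 0.697 to 0.999, which does not show equal responses. The Kiss1 call was lost (limma adjusted p of 0.0541 to 0.0712) in fits without replicate 1 of WT oil, WT E2, KIKO oil or KIKO E2, KIKO oil 2 or KIKO E2 3, and with a replicate block (0.0578).

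For KIKO minus ERKO, limma called 0 genes (0.0%), the smallest adjusted p being 0.286, and 323 (2.19%) reached an unadjusted p under 0.05. In ERKO alone, with ERKO E2 3 in the fit, 0 genes (0.0%) were called after E2, and 1068 (7.23%) reached an unadjusted p under 0.05. That 0 depends on ERKO E2 3. Without that library the ERKO change of Fos was −1.06, with a limma p small enough to pass the threshold. The count of 0 therefore does not show that ERKO libraries lack a response. Kiss1 differed by −1.44 ± 0.45 (unadjusted p = 0.00552), with ERKO E2 at 472 ± 161 FPKM and ERKO oil at 305 ± 56.5 FPKM (SD, n = 3 each). ERKO E2 3 held the highest Kiss1 level of the ERKO E2 libraries, 629 FPKM, and without it the difference was −1.20. Sox3, Bdnf, Nefm and 6330403A02Rik had been named for a small KIKO p with groups apart there, and Vgf partly for its KIKO p. Their differences from ERKO reuse those KIKO libraries, so the signs and small p values are partly built in by that choice. Sox3 (−0.68), Vgf (−0.81), Bdnf (−0.79) and Nefm (−0.65) were also negative, with unadjusted p of 0.00341 to 0.0111, and 6330403A02Rik was positive (1.02, unadjusted p = 0.000285). Without ERKO E2 3 the unadjusted limma p of Kiss1 was 0.0215. The differences were then −0.80 for Sox3, −0.84 for Vgf, −0.75 for Bdnf, −0.63 for Nefm and 0.96 for 6330403A02Rik, with unadjusted limma p of 0.000518 to 0.0187. Under oil, Tacr3, Sox3 and Vgf averaged 11.4 ± 2.31, 28.6 ± 4.73 and 450 ± 59.6 FPKM in KIKO, against 7.19 ± 0.504, 21.6 ± 1.81 and 295 ± 15.7 FPKM in ERKO (SD, n = 3 each). Bdnf averaged 5.68 ± 0.789 FPKM in KIKO oil and 3.11 ± 0.596 FPKM in ERKO oil libraries (SD, n = 3 each). Nefm averaged 22.4 ± 4.50 and 15.96 ± 0.118 FPKM, and Kiss1 504 ± 138 and 305 ± 56.5 FPKM, in the same groups. In KIKO E2 libraries, Bdnf and Nefm averaged 3.00 and 16.1 FPKM, near their ERKO oil means. A difference in response therefore holds a gap in the means under oil for all these genes, and that gap was not tested.

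**Figure D4:**
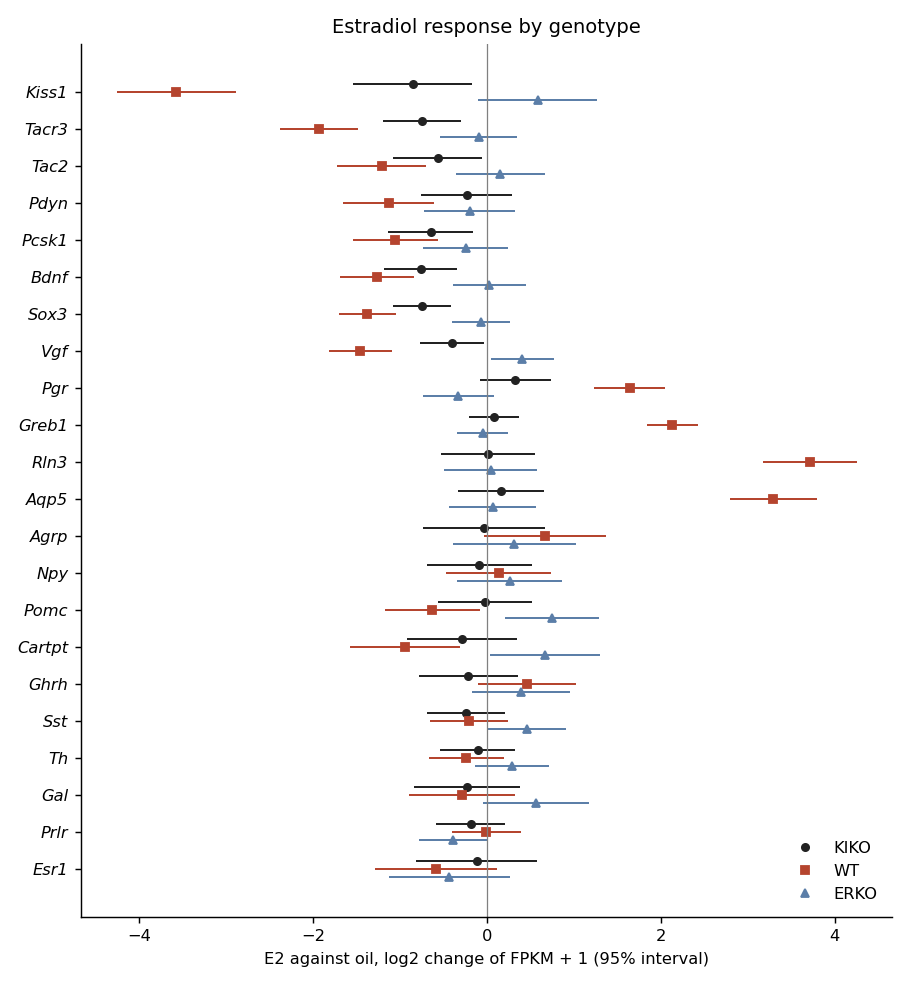
Change after E2 as log2 change of FPKM + 1 with 95% limma interval for 22 genes, KIKO (circles) above WT (squares) and ERKO (triangles) within each gene. KIKO intervals for Kiss1, Tacr3, Tac2, Pcsk1, Bdnf, Sox3 and Vgf lie below 0 without adjustment, while those for Greb1, Rln3 and Aqp5 span 0 far from the WT points.

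Feeding and pituitary-control peptides had small changes in KIKO, within wide intervals. Agrp and Npy, which drive feeding, had changes of −0.03 (−0.72 to 0.66) and −0.09 (−0.68 to 0.51), both with KIKO E2 3 as the highest of the 6 libraries. Pomc, the source of melanocortins, averaged 703 ± 152 FPKM in KIKO E2 and 707 ± 92.9 FPKM in KIKO oil libraries, and Cartpt, an anorexigenic peptide, 327 ± 88.1 and 394 ± 67.8 FPKM (SD, n = 3 each). Ghrh (−0.22), Sst (−0.24), Gal (−0.23), Th (−0.11) and Prlr (−0.19) all had negative changes with intervals that held 0. Of the 32 feeding genes tested, 15 were positive and 17 negative with a median of −0.01, and Bdnf had the only unadjusted p under 0.05.

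Lists for tethered and membrane signalling stayed near 0. In the AP-1, Sp1 and tethered target list, 7 of 18 members were positive and 11 negative with a median of −0.08. Fos, an AP-1 subunit and immediate early gene, had 16.1, 16.3 and 15.97 FPKM in KIKO E2 libraries, against 21.7, 20.7 and 23.3 FPKM in KIKO oil libraries (−0.42 ± 0.17, unadjusted p = 0.0228). The Fos change was 0.11 in WT and −0.82 in ERKO (−1.06 without ERKO E2 3). Jun, the partner of Fos, lay the other way in KIKO, with 32.7, 29.6 and 29.9 FPKM in KIKO E2 libraries and 25.9, 26.1 and 25.6 FPKM in KIKO oil libraries (0.24 ± 0.11, unadjusted p = 0.0405). The Jun change was −0.39 in WT and 0.01 in ERKO (0.16 without ERKO E2 3). For both genes the KIKO groups were apart. In the membrane-initiated signalling list 20 of 31 members were positive with a median of 0.02, and 0 had an unadjusted p under 0.05. Of 22 immediate early genes, 14 were negative with a median of −0.11. Of 30 collagen and matrix genes, 23 were positive with a median of 0.06, Gldn among them, and of 19 synapse and secretion genes 14 were negative with a median of −0.08. In the list of releasing hormones and dopamine genes, Slc18a2, the vesicular monoamine transporter, averaged 27.4 ± 2.64 FPKM in KIKO E2 and 19.9 ± 0.653 FPKM in KIKO oil libraries (SD, n = 3 each). Potassium channels, calcium channels, transmission genes, neurotrophins, steroid receptors, G protein regulators and Sox factors had medians between −0.03 and 0.03, with 0 members called.

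**Figure D5:**
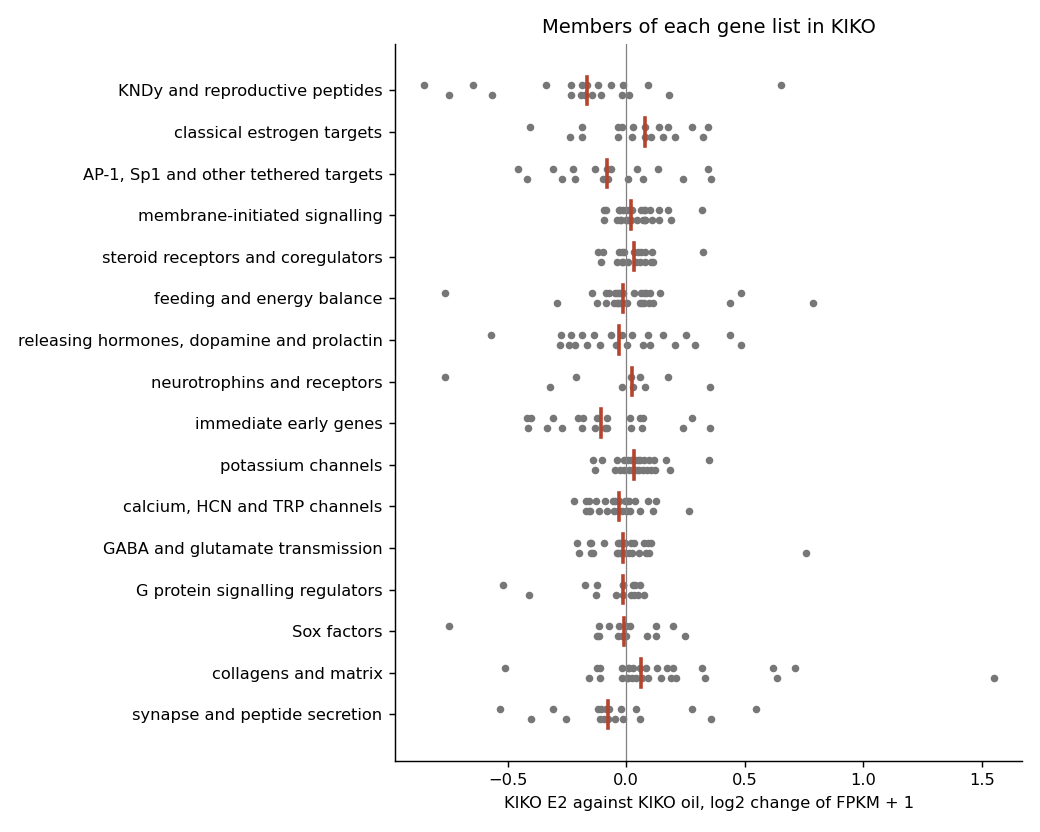
Change in KIKO, E2 against oil, as log2 change of FPKM + 1 for each tested member (points) of 16 gene lists, with the list median (red bar). Medians run from −0.17 for the KNDy list to 0.08 for classical estrogen targets, and the point at 1.55 is Gldn.

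The arcuate label was checked against Agrp, Pomc, Kiss1 and Ghrh, which were present in every KIKO library, at 76.5 FPKM or more. Markers of neighbouring tissue varied between libraries. Summed FPKM of 12 pituitary and pars tuberalis markers was 445, 342 and 212 in KIKO E2 libraries and 313, 143 and 72.2 in KIKO oil libraries, with overlap. All 8 tested members had a positive change, with a median of 0.95, and 0 had an unadjusted p under 0.05. Cga, the common pituitary hormone subunit, had 261, 200 and 116 FPKM in KIKO E2 libraries and 154, 64.2 and 35.7 FPKM in KIKO oil libraries. Of the 10 vasopressin, oxytocin and suprachiasmatic markers, 6 had a negative and 4 a positive change, with a median of −0.46. The negative ones were those of the suprachiasmatic nucleus, Vip at −1.04, Grp at −0.90, Nms at −0.85, Rgs16 at −0.52, Lhx1 at −0.50 and Prok2 at −0.41. Of these Nms alone had an unadjusted p under 0.05 (limma unadjusted p = 0.047, adjusted p = 1.0). Avp (0.37) and Oxt (0.22), which make up most of the list's sum, were positive. That sum ran from 3173 to 5189 FPKM in KIKO E2 and from 2858 to 4613 FPKM in KIKO oil libraries, and no member's groups were apart. Sums for the other marker lists, from astrocytes to blood, overlapped between KIKO groups, and 0 markers stood at 0 in all 6 libraries. The part of these markers in the KIKO changes was not tested.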

How the data were processed

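Total RNA of the arcuate nucleus was sequenced in 18 libraries, 3 for each of 6 groups taken from the labels. Per library, the authors deposited a table of FPKM values by gene, beside confidence bounds on the same FPKM scale. TopHat2 2.0, Cuffdiff and the build mm10 are named in the submitters' processing notes, and the annotation is not given in the sources used here. Of 20428 gene starts compared, 4.83% lay within 1000 bases of GRCm38, so genes are given by chromosome without positions, and promoters come from RefSeq. Fragment numbers implied by symmetric confidence bounds lay within 0.02 of a whole number for 72.0% to 74.7% of genes, depending on the library. They give relative depth and were used in no test.

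Rows sharing a symbol were summed. Small RNA genes (microRNA, snoRNA, snRNA) and genes averaging under 0.5 FPKM were left out, and the rest were tested on log2(FPKM + 1) with limma 3.58.1 in R 4.3.3. A single fit held all 18 libraries as 6 group means, with 12 residual degrees of freedom, and trended, robust moderated variances. The two-sided p values were adjusted by Benjamini-Hochberg over 14774 genes, with a threshold of 0.05. An exact permutation test of 3 against 3 libraries cannot go below 0.1. Groups are called apart where the 3 E2 and 3 oil libraries do not overlap.

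On simulated data for the KIKO comparison, 83% of 100 genes changed by 1 on the log2 scale and 98% of 100 changed by 2 were recovered, with 12 unchanged genes called. The changed genes were drawn from those with a mean log2(FPKM + 1) above 1, and the noise was normal. Many planted changes loosen the Benjamini-Hochberg cut-off, so these shares do not carry over to the KIKO comparison with its 1 call. The members, 16 pathway lists, 14 marker lists and the tests were chosen with earlier results of these data known. The rule named Esr1, genes past the threshold in KIKO, the 10 smallest p in each direction without overlap there, a fixed arcuate panel, the 8 smallest p in each direction in WT and in the response differences, and up to 3 members of each list with an unadjusted p under 0.05. Alternatives to the pseudocount, filter, scaling, variance model and libraries were run, and those on the WT gene set were chosen after seeing the data. Other steps used Python 3.11.15 with pandas 2.3.3, numpy 2.4.6 and matplotlib 3.10.9.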

Additional observations from a re-analysis of the deposited data

Results flagged for a closer look

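The E2 response differed between KIKO and WT, by the limma test of the difference itself, for 20 genes. Positive differences among the genes named by rule were 2.72 for Kiss1, 1.95 for Gldn, 0.98 for Ephb3 and 0.97 for Syt12. Negative ones were −3.70 for Rln3, −3.13 for Aqp5, −2.32 for Mad2l1, a spindle checkpoint protein, −2.27 for Fam151a, −2.05 for Col24a1, a collagen, −2.05 for Greb1, −1.76 for Tnxb, a tenascin, −1.57 for Phf21b and −1.46 for Accn4, an acid-sensing ion channel. All 9 of these rose in WT, while their KIKO changes lay between −0.16 and 0.27 and none passed there. Rln3, Aqp5, Fam151a, Col24a1 and Greb1 averaged 0.0568 to 0.358 FPKM outside WT E2, under the filter of 0.5 FPKM. They were tested only because they were high in WT E2, so their rise in WT and the sign of their difference were built in by the filter. Gldn is the exception among the 13, since its difference comes with a KIKO change of 1.55 and a WT change of −0.40. With a replicate block, the limma call was lost for Ephb3 (adjusted p = 0.156), Syt12 (0.172), Phf21b (0.126) and Kiss1 (0.0578). Phf21b lost it in 11 of the fits without 1 library. Leaving out KIKO oil 2 ended it for Ephb3, Syt12 and Accn4, leaving out KIKO E2 3 for Ephb3 and Syt12, and leaving out WT E2 1 for Ephb3 (limma adjusted p of 0.0512 to 0.0576 for these genes).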

How the results depend on the processing

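The number of genes past the threshold in KIKO was 1. It was 0 with a pseudocount of 0.1 or 0.5, with the KIKO groups alone in the fit and with a replicate block, 3 with no filter (Gldn, Tff3 and Serpinb7) and 4 with library weights (Gldn, 6330403A02Rik, Tmem35 and Sox3). Leaving out 1 KIKO library gave 0 to 1, and the cause was not tested. The adjusted p of Gldn ran from 0.00502 to 0.557. The number for KIKO minus WT was 20. It was 9 with a pseudocount of 0.1, 31 with no filter, 12 with a mean of at least 2 FPKM, 59 with library weights, 42 without ERKO E2 3 in the fit, 14 with a replicate block and 7 to 25 without 1 library (7 without KIKO oil 2, 11 without replicate 1 of KIKO E2, KIKO oil or WT E2, and 12 without KIKO E2 3). For KIKO minus ERKO it was 2 with no filter, 0 to 1 without 1 library (Gldn without KIKO E2 1) and 0 otherwise, with the replicate block too. Deviations of same-numbered KIKO libraries correlated at −0.0753, 0.3131 and 0.172, against −0.2913 to 0.0946 for differently numbered ones. With 3 libraries a group, these values cannot decide whether equal numbers mark pairs.

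With the WT set taken without ERKO E2 3, the genes that fell in WT gave 71 of the same sign and 21 apart in KIKO, and those that rose 177 and 37. Without the KNDy list 7 of the genes that fell were apart. Over 56 named genes, 1018 of 1054 KIKO values kept direction and side of the threshold, 9 lost and 3 gained a call, and 24 changed sign, in 9 genes. Col24a1 was −0.0608 with quantile normalization and −0.0414 with library weights, Fam151a −0.0117 and Pomc 0.0935 with library weights. Without 1 library the changes ran from −0.21 to 0.0026 for Accn4, −0.44 to 0.20 for Agrp, −0.0098 to 0.31 for Aqp5, −0.0783 to 0.124 for Col24a1, −0.64 to 0.0016 for Igfbp2, −0.41 to 0.14 for Npy, −0.14 to 0.17 for Pomc and −0.16 to 0.19 for Rln3. For KIKO minus WT, 284 of 321 values were unchanged in call and direction, 37 lost the call and 0 reversed. With 3 libraries a group, the median 95% interval reached 0.3458 to either side of a KIKO change.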

Other observations

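Of the 19 genes with a change of at least 2-fold in KIKO, Gldn alone passed the threshold. Among the others, Vip, a peptide of the suprachiasmatic nucleus, had 92.4, 60.7 and 7.47 FPKM in KIKO E2 libraries and 67.0, 74.4 and 82.5 FPKM in KIKO oil libraries. Rec8, a meiotic cohesin subunit, had 22.5, 2.19 and 5.52 FPKM in KIKO E2 libraries and 26.0, 20.2 and 25.1 FPKM in KIKO oil libraries. Its change was −1.65 in KIKO and −1.57 in WT, and neither passed. Both genes were chosen after their values were seen.

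Below the filter, Tff3, a trefoil peptide, had 1.55, 1.03 and 1.39 FPKM in KIKO E2 libraries, and 0, 0 and 0.217 FPKM in KIKO oil libraries. Serpinb7, a serine protease inhibitor, was listed at 0, 0 and 0.0343 FPKM in KIKO E2 libraries and at 0.294, 0.388 and 0.416 FPKM in KIKO oil libraries. Both were chosen after their values were seen.

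Among the genes that fell in WT with a promoter in the table, 5 of 19 held an AP-1 site (Bdnf, Ecm1, F2rl2, Igfbp2 and Procr), against 4 of 56 of those that rose, and 0 of either held the full estrogen response element. The Sp1 box was held by 10 of the 19 and 37 of the 56, and the cyclic AMP response element by 1 (Pcsk1) and 2. The shares over all promoter windows are 6.75% for the AP-1 site, 32.7% for the Sp1 box and 1.55% for the cyclic AMP response element. These shares count windows, while a gene was counted when any of its listed starts had a match. Genes with several starts had more windows, so the counts and the shares are not in the same unit. These counts describe letters in a window of 250 bases and were not tested.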
